A study of Mus musculus with 3 samples.

Results

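Receptors for the fast and modulatory transmitters of the retina were followed in 10-day-old mice of wild-type genotype, in RNA of the neural retina. They were taken as every non-control probe set with a single platform gene symbol belonging to the AMPA, kainate, NMDA, delta and metabotropic glutamate receptors, the GABA-A and GABA-B receptors, the glycine receptors, the nicotinic and muscarinic acetylcholine receptors, the serotonin receptors and the adrenergic receptors. This choice gave 61 probe sets of 49 genes, out of 12488 probe sets and 8251 named genes in the table. It used gene symbols only and no measured value.

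Per the descriptions, the animals were wild-type littermates of Rp1-/- mice, which were not analysed here, on a background mixed from 129/SvEv and C57BL/6. Each of the 3 samples was total RNA of retinas pooled from 3 to 4 mice, killed at postnatal day 10 with collection between 1 and 2 pm, and was read on a U74Av2 oligonucleotide array that gives 1 signal per probe set. The titles of the arrays numbered 2 and 3 hold the letters rp1 and that of array 1 does not, so the wild-type label rests on the descriptions. A pool is a mixture of all retinal cell types, in which fewer cells of a type and less RNA per cell cannot be told apart. Nothing in the labels states that the pools share no animal, so the SD over pools may hold less than the spread between mice.

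Glutamate is the transmitter of photoreceptors, bipolar cells and ganglion cells. OFF bipolar cells sense photoreceptor glutamate through AMPA and kainate receptors and ON bipolar cells through a metabotropic receptor, whereas amacrine and ganglion cells use AMPA and NMDA receptors. Amacrine and horizontal cells answer with GABA or glycine, which open chloride channels of the GABA-A and glycine receptor families, and GABA also acts on the G protein-coupled GABA-B receptor. Starburst amacrine cells release acetylcholine, which drives spontaneous retinal waves in the early postnatal period, and serotonin and noradrenaline receptors modulate retinal cells. Most of these receptors are assembled from several subunits, each with its own gene.

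A signal was read against a background limit, the 90th percentile on each array of 96 probe sets of 66 genes made in other tissues such as liver, pancreas, muscle and testis. Its values for arrays 1 to 3 were 301.7, 404.9 and 341.0 in the deposited linear units. By construction some of those probe sets lie above it, and a receptor under it may still be expressed. A signal depends on the probes of its set, so no receptor's level was ranked against another's. Signals given as 3 values are those of pools 1, 2 and 3 in that order.

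Most receptor probe sets were above background on no array. Of the 61, 9 (14.8%) exceeded the limit on all 3 arrays, against 33.4% of all 12422 non-control probe sets. On no array did 39 receptor probe sets (63.9%) exceed it, against 51.9% of all probe sets. The remaining 13 did so on 1 or 2 arrays. The mean signal had a median of 168.3 over receptor probe sets and of 246.2 over all probe sets, which describes the probe sets and does not compare transcript amounts. By gene, with each gene represented by its brightest probe set, 9 of 49 (18.4%) were above the limit on all arrays against 40.6% of all named genes, and 29 of 49 (59.2%) on none against 43.6%. The count was moved most by pool 2. Without pool 2, 14 receptor genes were above background on both remaining arrays, against 9 without pool 1 and 10 without pool 3. The share of all probe sets followed the same order, at 37.7% without pool 2, 34.1% without pool 1 and 35.3% without pool 3. With the mean of the 3 limits on every array, an alternative chosen after seeing the data, the count was 10, with Htr7 added.

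**Figure D1:**
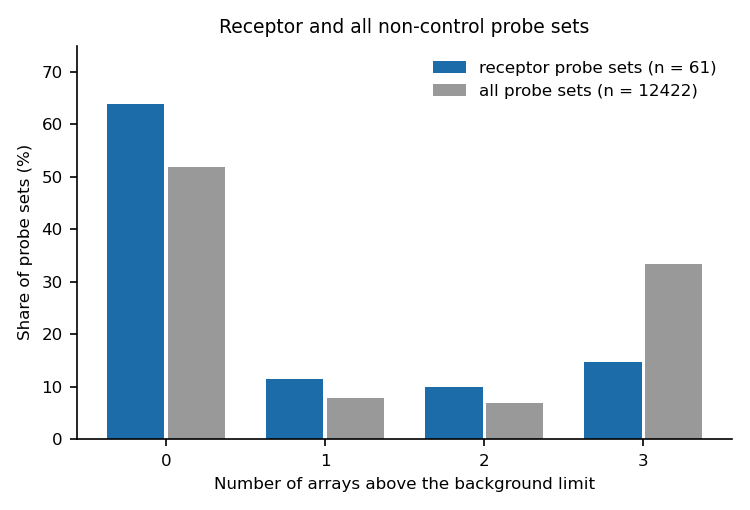
Share of probe sets (%) by the number of arrays, from 0 to 3, on which the signal exceeded the background limit, for the 61 receptor probe sets and all 12422 non-control probe sets. The bar of receptors above the limit on all 3 arrays stands at 14.8% and that of all probe sets at 33.4%.

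The 9 genes above background in every pool came from 8 of the 13 families. They were Gria2 (AMPA), Grik5 (kainate), Grid1 (delta), Gabrr1 (GABA-A rho), Gabbr1 (GABA-B), Glrb (glycine), Chrna6 and Chrne (nicotinic) and Htr5a (serotonin). With the 95th percentile as the limit only Gria2, Gabbr1 and Glrb kept the call, and with the 80th percentile 19 receptor genes had it. None of the 8 measured genes for alpha, beta, gamma and delta subunits of GABA-A receptors was above the limit on all arrays. Nor was any of the 4 NMDA subunit genes, the 2 muscarinic genes, the 2 adrenergic genes or the single metabotropic glutamate receptor gene measured. Of all 49 receptor genes 18.4% were, and of all named genes 40.6%, so an absence among so few genes is not a result about a family.

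**Figure D2:**
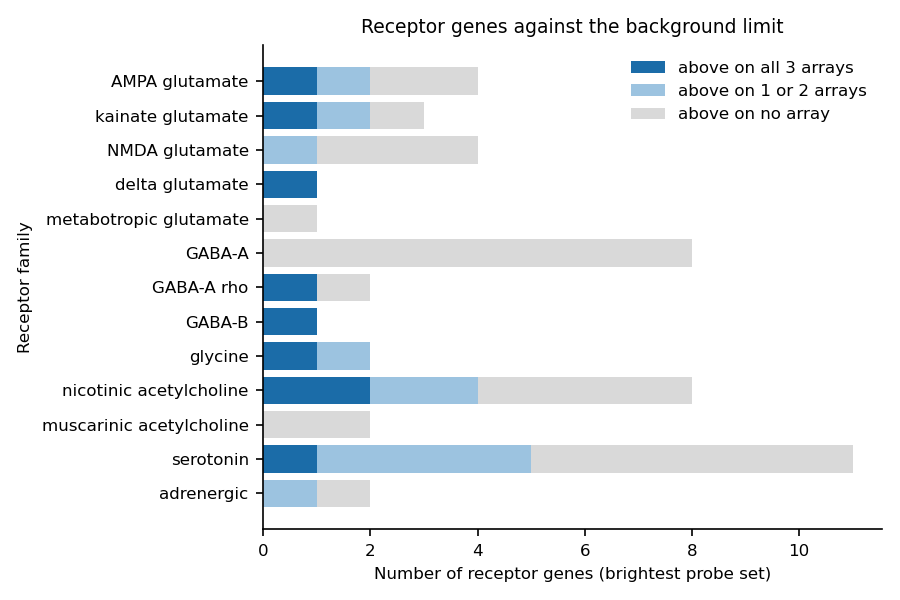
Number of receptor genes in each of the 13 families that exceeded the background limit on all 3 arrays, on 1 or 2 arrays, or on none, each gene read by its brightest probe set. All 8 GABA-A genes outside the rho class were above it on no array, as were 59.2% of the 49 receptor genes and 43.6% of all named genes. Of 11 serotonin receptor genes, 5 were above it on at least 1 array and 6 on none.

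RefSeq's promoter table (GRCm38.p6) held 1 or more windows for 35 of the 49 receptor genes, and the first listed window of a gene was used. Windows of 5 genes follow, each the 250 bases before an annotated start, in the gene's own direction, with CG dinucleotides in capitals. Gabrr1 and Gabrr2 are shown because these neighbouring genes encode related subunits and read on opposite sides of the limit. Gria2 and Glrb, also neighbours on a chromosome, and Gabbr1 are shown because they kept their place above background under every limit tried. The windows lie at chr4:33132306-33132555 (plus strand) for Gabrr1, chr4:33062862-33063111 (plus strand) for Gabrr2, chr3:80802836-80803085 (minus strand) for Gria2, chr3:80913661-80913910 (minus strand) for Glrb and chr17:37045716-37045965 (plus strand) for Gabbr1.
Gabrr1: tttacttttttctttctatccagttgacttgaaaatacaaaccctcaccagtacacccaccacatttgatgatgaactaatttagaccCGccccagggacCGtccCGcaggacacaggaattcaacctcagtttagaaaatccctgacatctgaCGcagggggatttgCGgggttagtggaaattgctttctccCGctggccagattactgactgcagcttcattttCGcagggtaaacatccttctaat
Gabrr2: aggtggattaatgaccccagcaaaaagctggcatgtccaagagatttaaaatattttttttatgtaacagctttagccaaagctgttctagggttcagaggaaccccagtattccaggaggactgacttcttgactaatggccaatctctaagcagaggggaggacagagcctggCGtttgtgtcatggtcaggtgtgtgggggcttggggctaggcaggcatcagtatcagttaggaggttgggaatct
Gria2: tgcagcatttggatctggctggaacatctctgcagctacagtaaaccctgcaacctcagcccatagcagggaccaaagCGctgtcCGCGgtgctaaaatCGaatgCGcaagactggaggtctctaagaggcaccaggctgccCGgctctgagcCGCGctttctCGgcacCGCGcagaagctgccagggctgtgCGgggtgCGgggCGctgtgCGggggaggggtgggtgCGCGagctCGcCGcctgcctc
Glrb: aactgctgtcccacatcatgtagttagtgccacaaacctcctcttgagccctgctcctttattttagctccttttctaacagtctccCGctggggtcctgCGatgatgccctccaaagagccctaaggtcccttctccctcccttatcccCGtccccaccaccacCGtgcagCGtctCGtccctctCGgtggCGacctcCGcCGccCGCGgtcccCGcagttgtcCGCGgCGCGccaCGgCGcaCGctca
Gabbr1: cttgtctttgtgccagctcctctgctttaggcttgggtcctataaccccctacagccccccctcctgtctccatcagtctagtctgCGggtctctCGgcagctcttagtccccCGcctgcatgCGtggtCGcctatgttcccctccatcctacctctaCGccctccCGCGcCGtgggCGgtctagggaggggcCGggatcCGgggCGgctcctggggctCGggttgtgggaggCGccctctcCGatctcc
For Gabrr2 and Gria2, RefSeq's gene span reaches further upstream than the window. The Gabrr1 window holds 7 CG dinucleotides and the Gabrr2 window 1, while those of Gria2, Glrb and Gabbr1 hold 19, 20 and 16.

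The windows, 1 per gene, were also read as a group, which describes sequence and no regulator. Windows of the same gene can differ, as for Grm8 with 29, 8 and 2 CG dinucleotides, so the figures depend on the window used. Median CG counts were 13 over the 7 matched genes above background on all arrays (1 to 20), 15 over the 7 above it on 1 or 2 arrays (6 to 41) and 6 over the 21 above it on none (0 to 29). The ranges overlap, and the median over all 27025 genes of the table was 6. The GGGCGG box, searched on both strands, was in 4 of the 7 windows of genes above background throughout. It was in 2 of the 7 windows of genes above it on 1 or 2 arrays. It was in 8 of the 21 windows of genes above it nowhere, and in 32.9% of all windows. The TATAAA box was in 0 of the windows of both groups of 7, in 3 of the 21 and in 12.97% of all windows. The TAATCC core is bound by Crx, a photoreceptor regulator. It was in 1 of the 7 windows of genes above background throughout and in 0 of the 7 for 1 or 2 arrays. It was in 3 of the 21 and in 6.38% of all windows. The single window with it among genes above background throughout was that of Chrne, which held 2 matches. Each motif was counted on either strand, and none of the 3 contains another.

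Among AMPA subunits, which carry fast glutamate currents, Gria2 was measured in all pools with little spread. Gria2, the subunit that makes AMPA channels poorly permeable to calcium, read 2058.8, 1970.4 and 2095.1, a range of 1.06-fold and an SD of 0.046 on the log2 scale. The pools lay closer together here than for any other receptor probe set above background on all arrays. That signal comes from a probe set with the _s_at suffix, which marks probes shared between transcripts. The other 3 Gria2 probe sets were dimmer. One read 221.9, 488.3 and 320.2 in pools 1 to 3 and exceeded the limit in pool 2 alone. Another, with the _f_at suffix for sequence families, read 250.2, 231.4 and 166.4, and the last, an _r_at set chosen under relaxed probe rules, read 18.4, 0.7 and 11.6. Neither exceeded background in any pool, so the call for Gria2 rests on a single probe set of 4.

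Gria1, another AMPA subunit, was lowest in pool 2. It read 528.7, 250.9 and 420.0 and was above background in pools 1 and 3. Its second probe set followed the same order at 220.9, 94.2 and 186.3 but was above the limit nowhere. Gria3 (177.8, 37.7 and 159.0) shared the dip in pool 2 and Gria4 (119.4, 174.0 and 74.9) did not. Both were above background on no array.

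Kainate receptors also pass fast glutamate currents, and the subunit type differed in signal against background. Grik5, a high-affinity subunit that needs a partner subunit to form a channel, read 939.1, 500.2 and 890.5, all above the limit, with an SD of 0.50 in log2 signal. Its _r_at probe set ran the other way, at 97.0, 574.9 and 103.1, high only in pool 2. Grik2, a partner subunit, read 305.9, 223.8 and 241.4 and passed the limit only in pool 1, by 4.25 units, and its second set (218.7, 139.5 and 130.2) was above it nowhere. Grik1, the kainate subunit of OFF bipolar cells, read 84.9, 54.6 and 82.6, with no pool above background.

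NMDA receptors respond to glutamate when the membrane is depolarised, and the 4 subunits measured were all of the GluN2 class. Grin2c read 392.6, 326.4 and 409.1 and was above background in pools 1 and 3. Its pool 2 value would have passed the limit of array 1 but not that of array 2. Grin2a (135.0, 137.0 and 196.2), Grin2b (50.9, 70.1 and 140.2) and Grin2d (168.8, 208.2 and 128.0) were above the limit in no pool. Grid1, a delta receptor that binds synaptic organiser proteins, read 349.9, 417.3 and 452.9. Grid1 passed the limit in every pool, though in pool 2 by a narrow margin over 404.9.

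Grm8, a metabotropic receptor that dampens glutamate release from terminals, was the only metabotropic glutamate receptor matched here. It read 280.5, 246.5 and 289.7, below the limit in each pool.

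**Figure D3:**
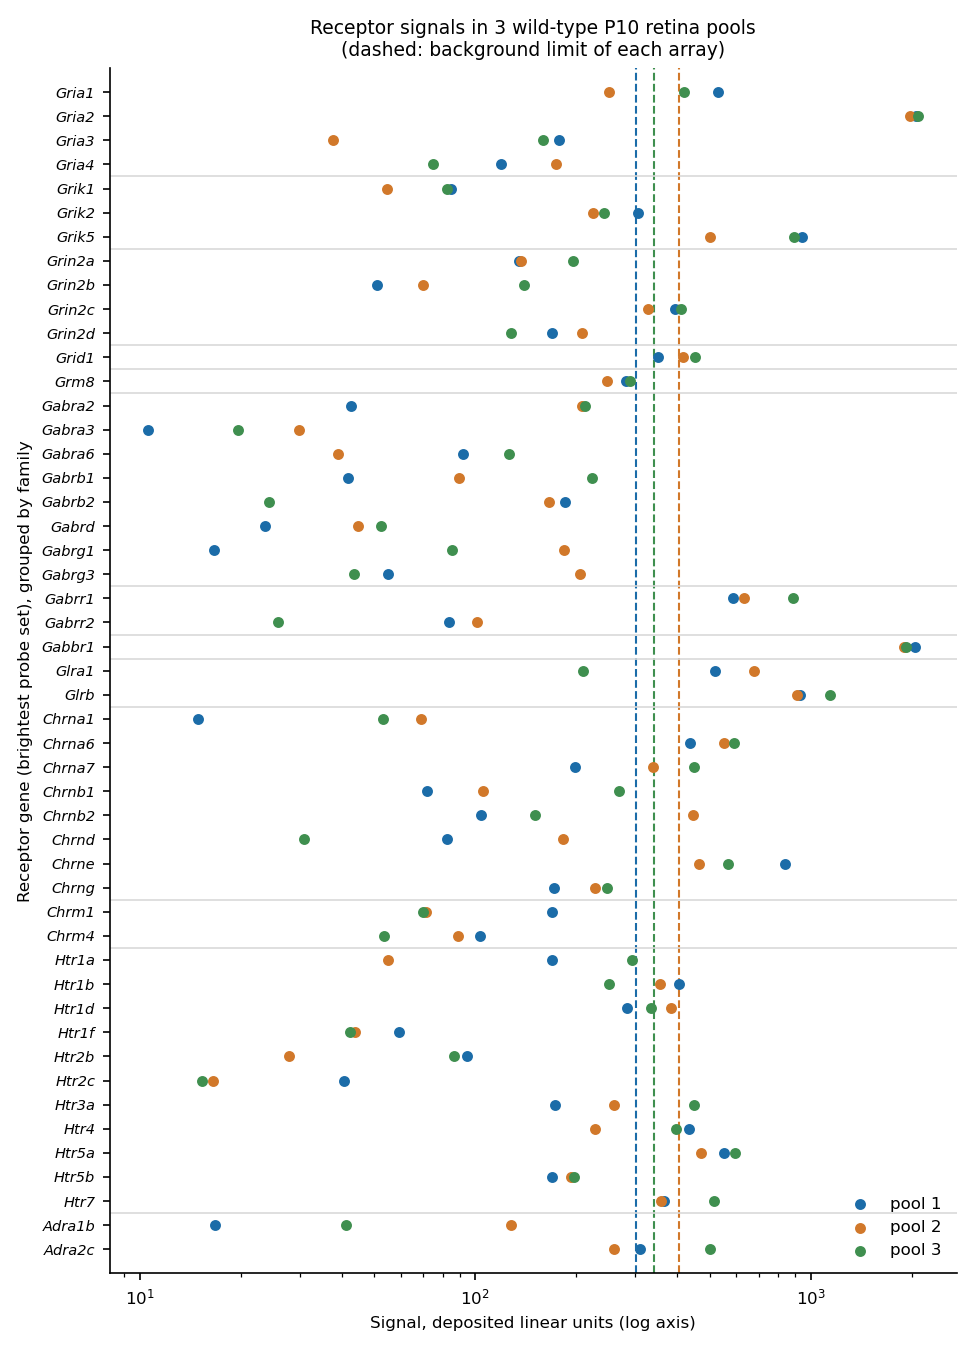
Signal (deposited linear units, log axis) of each of the 49 receptor genes in pools 1, 2 and 3, read by the brightest probe set and grouped by family, with a dashed line at the background limit of each array (301.7, 404.9 and 341.0). Gria2 and Gabbr1 lie far to the right with their pools close together, and the GABA-A subunit genes other than Gabrr1 lie to the left of all 3 lines.

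Of the GABA receptor genes, Gabbr1 and Gabrr1 were above background in all pools and the other 9 in none. Gabbr1, the GABA-binding subunit of the GABA-B receptor, read 2043.5, 1895.8 and 1918.9, a range of 1.08-fold with an SD of 0.058 on the log2 scale. Gabrr1, the rho1 subunit of the slow GABA channels on bipolar cell terminals, read 586.4, 633.3 and 884.0, above background throughout and highest in pool 3 by 1.51-fold over pool 1. Gabrr2, the neighbouring gene for rho2, read 83.3, 101.1 and 25.8, above background in no pool.

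Subunits of the heteromeric GABA-A receptors, the main fast inhibitory channels of neurons, were not above background in any pool. The 9 probe sets of these 8 genes had mean signals from 38.6 to 154.4 except that of Gabra3 (10.6, 29.9 and 19.6). Gabra2 read 42.5, 207.9 and 212.7, and Gabrb1 read 41.8, 89.4 and 223.5, both lowest in pool 1. Gabrb2 read 184.6, 166.1 and 24.3, lowest in pool 3, and Gabrg1 read 16.6, 184.4 and 85.3. Gabra6, known from cerebellar granule cells, read 91.9, 38.9 and 126.2 on its brighter set. Gabrd (23.6, 44.8 and 52.2), whose subunit serves extrasynaptic receptors, and Gabrg3 (55.0, 205.8 and 43.4) were likewise dim. Ranges over pools in this class ran from 2.21-fold for Gabrd to 11.1-fold for Gabrg1, all at signals under the limits. Several of these genes sit side by side on the chromosome (Gabrg1 and Gabra2, Gabra6 and Gabrb2).

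Both measured glycine receptor genes gave signal, one of them unevenly. Glrb, the subunit that ties the receptor to the gephyrin scaffold, read 928.8, 910.6 and 1142.2, above background in all, with a range of 1.25-fold. Glra1, a ligand-binding alpha subunit, read 519.3, 676.9 and 209.3, and in pool 3 it was not above background. Its pool 2 signal was at least 1.99-fold higher than pool 3, taken against the limit of array 3. Glra1 had the widest range, 3.23-fold with the signal of pool 3 taken as it stands, among the 15 receptor probe sets whose mean signal was over the mean limit of 349.2.

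Nicotinic receptors are acetylcholine-gated channels with distinct neuronal and muscle subunits. Chrna6, a neuronal subunit of retinal ganglion cells and dopamine neurons, read 435.3, 550.9 and 590.1, above background in each pool. Chrna7, which forms channels on its own, read 198.6, 339.6 and 447.4 and passed the limit in pool 3 only. Chrnb2, the neuronal beta subunit needed for cholinergic retinal waves, read 103.8, 444.9 and 150.4, above background in pool 2 alone. Against the limit of array 1, where each was lowest, the range was at least 1.48-fold for Chrna7 and 1.47-fold for Chrnb2, and no pool was above background for both.

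The muscle subunits were mostly dim, with a single exception that probe sets disagreed on. Chrne, the epsilon subunit of adult muscle, read 835.7, 465.3 and 566.2 on an _r_at probe set, above background in all pools. Its other sets read 93.7, 214.5 and 217.4, and 15.2, 38.9 and 39.9, above the limit nowhere and with the pools in a different order. Chrna1 (14.9, 69.1 and 53.1), Chrnb1 (71.8, 105.2 and 267.6), Chrnd (82.4, 182.8 and 30.9) and Chrng, the fetal muscle subunit (172.0, 226.9 and 247.7 on its brighter set), were above background in no pool. Of 4 skeletal muscle markers measured, Acta1, Myh4 and Tnnt3 were above it in no pool. Ckm was above it only in pool 3 at 544.7, with 92.4 and 97.4 in pools 1 and 2. The limit was itself set partly on genes made in muscle, so a muscle marker under it is partly a result of how the limit was built. Rapsn, which clusters muscle nicotinic receptors, read 513.8, 397.5 and 434.9, highest in pool 1 and lowest in pool 2 like the bright Chrne set. None of the 4 muscle markers had that order. Acta1 and Ckm were highest in pool 3, and Myh4 and Tnnt3 in pool 2. The part of muscle RNA in the Chrne signal was not tested.

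Muscarinic receptors, the G protein-coupled acetylcholine receptors, were represented by Chrm1 (169.0, 71.4 and 70.1) and Chrm4 (103.0, 88.6 and 53.5). Both were highest in pool 1 and lowest in pool 3, and above background in none.

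**Figure D4:**
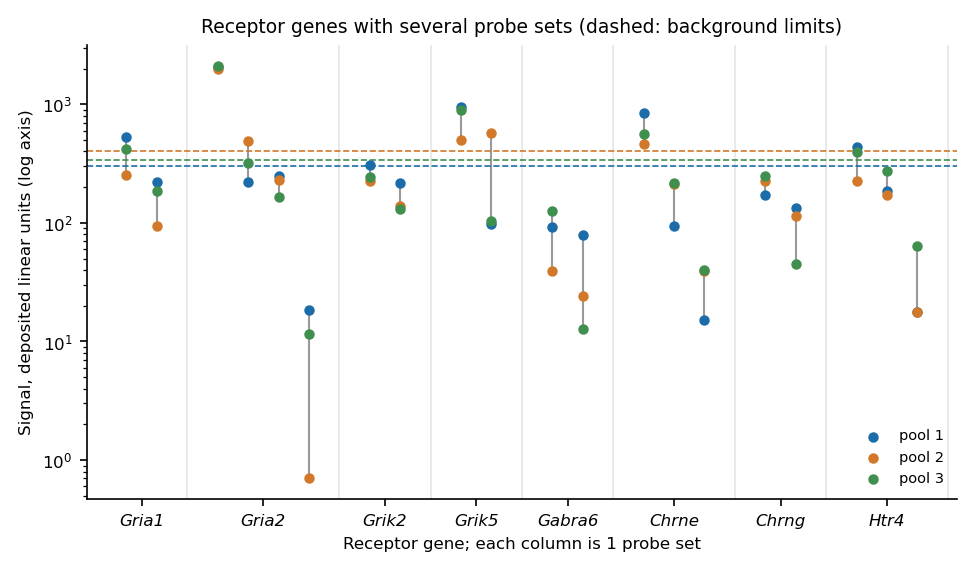
Signal (deposited linear units, log axis) of every probe set of the 8 receptor genes that have more than 1, with a point per pool, a grey line over the range and dashed background limits. For Gria2 and Chrne a single set lies above all 3 limits and the others do not, and for Grik5 the second set is high in pool 2 only.

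Serotonin receptors made up the largest family, with 11 genes. Htr5a, which couples to inhibitory G proteins, read 551.9, 471.2 and 593.6, above background in each pool, with a range of 1.26-fold, whereas its relative Htr5b (169.4, 192.7 and 197.1) was above it in none. Htr7, which raises cyclic AMP, read 365.0, 358.4 and 514.2 and passed the limit in pools 1 and 3. Htr4, which also raises cyclic AMP, did so in the same pools on a _g_at set at 434.4, 227.0 and 397.7, while its other 2 sets (185.9, 171.5 and 273.3, and 17.7, 17.7 and 64.0) did so nowhere.

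The remaining serotonin receptors were near or below the limit. Htr1b, an inhibitory autoreceptor, read 406.0, 355.0 and 249.6 and was above background in pool 1. Htr3a, the serotonin-gated channel, read 173.3, 260.0 and 449.0 and was above it in pool 3. Htr1d read 283.2, 384.3 and 334.2, a little under the limit of each array and above it on none. Htr1a, Htr1f, Htr2b and Htr2c had mean signals from 24.2 to 172.7 and were above background nowhere.

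Among adrenergic receptors, which bind noradrenaline and adrenaline, Adra2c, an inhibitory alpha-2 receptor, read 310.1, 258.5 and 502.4 and was above background in pools 1 and 3. Adra1b read 16.8, 127.5 and 41.3, above it in no pool. Of the 6 receptor genes above the limit on exactly 2 arrays, 5 failed it only on array 2 (Gria1, Grin2c, Htr4, Htr7 and Adra2c). Glra1 failed it only on array 3. Array 2 had the highest limit, and fewer of all 12422 probe sets exceeded it there. These were 4609 on array 2, against 5434 on array 1 and 5078 on array 3. The share of all genes that failed on array 2 alone was not counted.

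The spread between pools was taken over receptors with signal. The 9 receptor probe sets above the limit on all arrays had a median SD of log2 signal of 0.19 and a median range of 1.29-fold, against 0.24 and 1.38-fold over all 4145 such probe sets. The 15 receptor probe sets above the mean limit on average varied over pools with an SD of log2 signal of 0.29 in the median, and all 5032 such probe sets with 0.27. Their ranges were 1.43-fold and 1.42-fold in the median. With signals under the limit taken as they stand, Gria1 (2.11-fold) and Glra1 (3.23-fold) of the 15 had a range over 2-fold, or 13.3%, against 12.1% of all such probe sets. Both were under the limit in their lowest pool, and against that limit the ranges were at least 1.31-fold and 1.99-fold. With values floored at the limit 0 of the 15 passed 2-fold, and with arrays scaled to a common median 5 receptor probe sets did. Without pool 3 the median SD was 0.18, and without pool 1 a single set kept a range over 2-fold. The 46 receptor probe sets below the mean limit had a median SD of 0.75, against 0.66 for all probe sets below it.

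Of the 9 receptor probe sets above background throughout, 6 were highest in pool 3 and the other 3 in pool 1, and 31.3% of all such probe sets were highest in pool 3. Lens markers differ widely between the pools. Their summed signal over 4 genes was 47857, 7238 and 162649, with Mip not above background in pool 2. Of the 9 receptors, 3 (Gria2, Glrb and Htr5a) were lowest in pool 2 and highest in pool 3 like the lens markers, against 16.8% of all probe sets above background throughout, with ranges of 1.06-fold, 1.25-fold and 1.26-fold. The rod marker Gnat1 was also far higher in pool 3, at 1014.7, 1101.3 and 10970.1, a 10.8-fold range. The other measured rod markers, Sag and Pde6b, were also highest in pool 3 but with ranges of only 1.57-fold and 1.28-fold. The part of lens RNA, or of a difference in rod RNA, in these values was not tested. Control sets for the 3' and 5' ends of beta-actin RNA also differed between pools. The 3' set read 42626.2, 21472.2 and 19847.9 and the 5' set 35607.5, 14954.4 and 11718.6. For Gapdh these were 33544.6, 27340.3 and 41325.2, and 35440.3, 30904.6 and 44621.4. The part of RNA quality in the receptor values was not tested. Retinal markers were present, with all measured markers of rods (3 of 3), cones (2 of 2), amacrine cells (3 of 3), ganglion cells (3 of 3) and Müller glia (3 of 3) above the limit on all arrays, bipolar markers in 3 of 4, and pigment epithelium markers in 0 of 4. Of the retinal markers, Pcp2 (bipolar) and Glul (Müller) were read by an _r_at set and Sncg (ganglion) by an _f_at set. Both blood markers were above background on all arrays and lowest in pool 2, with a summed signal of 21429, 4293 and 14481. Of 3 vessel markers none was above it on all arrays. The vessel marker Cldn5 passed in pools 1 and 3 and was lowest in pool 2, at 531.9, 386.4 and 834.4.

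The genes that make, carry or anchor transmitters, and those that relay the ON bipolar signal, were read the same way. Across lists for transmitter synthesis and transport, receptor scaffolds and the ON bipolar cascade, 19 of 40 measured genes exceeded the limit on all arrays (40.6% of all named genes did), 13 on 1 or 2 and 8 on none. Among GABA and glycine genes 4 of 6 did on all arrays. Gad1, which makes GABA, read 1628.8, 2116.5 and 2270.1, Slc6a9, a glycine transporter, read 2860.3, 1649.9 and 1985.0, and Gad2 (10.9, 55.6 and 15.3) was not above background in any pool. Slc32a1, which loads GABA and glycine into vesicles, read 1191.2, 1427.4 and 1988.0. Gad1 and Slc32a1 exceeded the limit in the same pools in which Gad2 and the GABA-A subunit probe sets, apart from Gabrr1, did not.

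For glutamate, 1 of 3 measured transport and synthesis genes was above background throughout. This was Glul, glutamine synthetase, at 1040.2, 1492.1 and 785.0 on an _r_at set, the brighter of its 2 probe sets. Slc1a1, a glutamate transporter, read 365.8, 345.3 and 424.4 and passed in pools 1 and 3. Slc1a2 read 446.2, 113.9 and 122.4 and passed in pool 1. Of 3 cholinergic genes none passed on all arrays. Ache, acetylcholinesterase, read 565.5, 402.1 and 702.3 and fell just short of the limit of 404.9 in pool 2, Rapsn passed in pools 1 and 3, and Slc18a3, the vesicular acetylcholine transporter, was above background nowhere at 31.5, 84.8 and 81.1. Of 7 monoamine genes only Th, the first enzyme of dopamine synthesis, passed throughout at 352.1, 498.9 and 452.7. Ddc (176.8, 89.2 and 118.8) and Slc6a3 (78.4, 124.7 and 106.9) passed nowhere.

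Receptor scaffolds and the ON bipolar cascade gave 7 of 14 and 6 of 7 genes above background on all arrays. Dlg4, the scaffold PSD-95 of glutamate synapses, read 566.8, 562.5 and 389.1, and Dlg1 read 1178.8, 1051.7 and 1436.8, both above the limit throughout, whereas Dlg3 (251.6, 155.4 and 362.9) passed only in pool 3. Gphn, the gephyrin scaffold that binds Glrb, read 616.2, 623.1 and 494.4. In the ON bipolar cascade, Gnao1, the G protein alpha subunit activated by the ON receptor, read 3886.9, 6912.2 and 6382.4. Rgs7, which speeds its shutoff, read 477.8, 519.1 and 520.8. Trpm1, the channel at its end, read 217.7, 357.6 and 422.5 and passed the limit in pool 3 only.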

How the data were processed

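Total RNA of 3 wild-type retina pools was read on U74Av2 arrays. The authors deposited 1 linear intensity per probe set. Its software and scaling are not given in the sources used here. With 2% of values trimmed at each end, arrays 1 to 3 had means of 500.3, 500.2 and 500.3, so the deposited intensities were used without further scaling. The number of arrays limits the precision. Pools were numbered in accession order.

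Gene symbols came from GEO's platform annotation. A single symbol was available for 10855 of 12488 probe sets, 396 had several and 1237 none here. Receptors were matched by platform symbol, other genes with symbols updated through RefSeq's gene table (GRCm38.p6). The 66 control probe sets were left out, except where beta-actin and Gapdh control sets are quoted. Values below 1 were set to 1 before log2.

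The background list held 74 genes, of which 66 were measured. All samples form 1 group, so no test was run and results are counts, values and SDs. The receptors, gene lists and alternatives were chosen with earlier results of these data known. Named receptors are those above the limit on any array plus receptors with a textbook retinal role. The other receptor genes were described after their values were seen. Partner genes are the first 3 measured of each list, with Slc32a1 and Gphn added after their values were seen. Alternatives changed the limit, the scaling, the pools, the probe sets, the floor and the filter. The procedures were tested on simulated data. Python 3.11.15, numpy 2.4.6, pandas 2.3.3, scipy 1.17.1 and matplotlib 3.10.9 were used.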

Additional observations from a re-analysis of the deposited data

How the results depend on the processing

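The count of receptors above background depended on where the limit was set. With the 95th percentile as the limit, 3 receptor probe sets and 3 receptor genes (Gria2, Gabbr1 and Glrb) were above it on all arrays, and 0 had a range over 2-fold. With the 80th percentile there were 20 probe sets, 19 genes, 7 with a range over 2-fold and 29 partner genes. The share of receptor probe sets stayed below that of all probe sets in both cases, at 4.92% against 23.6% and 32.8% against 46.3%. Leaving out a pool gave 9 to 14 probe sets, 9 to 14 genes, a median SD of 0.18 to 0.26, 1 to 2 probe sets with a range over 2-fold and 19 to 26 partner genes. The share of receptor probe sets was then 14.75% to 22.95%, against 34.1% to 37.7% of all probe sets. With limits set on each array, leaving out a pool can only add probe sets to the count. Averaging the probe sets of a gene gave 6 genes. Scaling to a common median gave 5 probe sets with a range over 2-fold. Floors at the limit gave a median SD of 0.21 and 0 such probe sets, and no filter on low values 0.61 and 34. The mean log2 signal over the limit turned negative at the 95th percentile for Chrna6 (-0.065), Grid1 (-0.43) and Htr5a (-0.023), and with plain _at probe sets for Chrne (-1.08) and Gria2 (-0.088), whose bright sets this leaves out. Quantile normalisation, and a common limit chosen after seeing the data, kept the 9 genes, the second adding Htr7. No paired analysis was possible because all samples form 1 group.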

Other observations

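Receptors for other messengers, outside the families described above, were read by 42 probe sets of 38 genes for dopamine, purines, neuropeptides, histamine, opioids, cannabinoids and melatonin. Of the 38 genes, 4 were above background on all arrays, 5 on 1 or 2 and 29 on none, whereas 40.6% of all named genes were above it on all arrays and 43.6% on none. Cckbr, a cholecystokinin receptor, read 861.3, 1228.0 and 802.7 in pools 1, 2 and 3. Sstr4, a somatostatin receptor, read 851.0, 831.2 and 1039.7, whereas Sstr1, Sstr2, Sstr3 and Sstr5 were above background nowhere. Vipr2, a receptor for vasoactive intestinal peptide, read 619.3, 576.0 and 547.2, a range of 1.13-fold, and Vipr1 (50.1, 92.5 and 165.5) was above background nowhere. Drd4, a dopamine receptor of photoreceptors, read 536.9, 648.0 and 2699.7, highest in pool 3. Drd2, the dopamine autoreceptor, read 430.3, 289.9 and 684.3 and passed the limit in pools 1 and 3. Among purine receptors, P2rx7 read 574.5, 368.6 and 549.0 and passed in the same pools, and P2rx1 read 532.8, 621.9 and 154.4, passing in pools 1 and 2. Cnr1, the neuronal cannabinoid receptor, read 39.2, 43.1 and 32.9, above background in no pool. These genes were chosen by symbol after the receptors above had been examined.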
